A study of Mus musculus with 4 samples.

Results

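The genes described here are 9 mouse antagonists of Wnt signalling, Sfrp1, Sfrp2, Sfrp5, Frzb, Dkk1, Dkk3, Shisa2, Axin1 and Axin2, in a study of N6-methyladenosine (m6A) in retinal organoids. They were chosen by name: every site that a deposited table places in a gene with one of these symbols was taken. This gave 690 distinct sites in 9 genes, out of 1076788 sites and 20001 gene names in the whole series. The organoids came from a mouse Rx:GFP line, a reporter line for the retinal gene Rax, whose own Mettl3 gene carries the FKBP12F36V degron and an HA tag at the C-terminal end. METTL3 catalyses the methylation that gives most m6A of mRNA. The compound dTAG13 directs degron-tagged proteins to the proteasome. All 4 libraries carry the tag, and at day 6 of differentiation 2 of them received 125 nM dTAG13 for 8 h and 2 received none (0 h). The genotype labels name Mettl3, Mettl4, Mettl5 and Mettl6 in turn, whereas the title and design of the series name METTL3, which was taken to hold for all 4 and was not tested. The labels do not say how many clones the line represents or whether the 2 libraries of a group came from separate cultures. The p-values therefore measure only the spread between these samples, which may be technical.

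Wnt ligands bind Frizzled receptors and LRP coreceptors, which halts a destruction complex and lets β-catenin accumulate and activate target genes. Antagonists act at successive steps. SFRP proteins bind Wnt ligands outside the cell, and DKK1 binds the LRP coreceptors. SHISA proteins hold Frizzled receptors in the endoplasmic reticulum, and AXIN proteins scaffold the destruction complex. In the embryo, keeping Wnt signalling low at the anterior end of the neural plate is a known requirement for the forebrain and the eye field. On mRNA, m6A is best known near stop codons and in 3′ untranslated regions, and it is read by proteins that affect mRNA stability and translation.

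GLORI, the assay used, deaminates unmethylated A so that it is read as G, whereas m6A is still read as A. The level of a site is the percent of its reads that kept A. The tables list only called sites, with a level of at least 10%, 5 reads of A and 15 reads in all, so an absent position may be unmethylated, below these limits or uncovered. The libraries listed 220034 to 350462 sites, with a median of 75 to 91 reads per site, and the first dTAG13 library had the fewest sites and the lowest median gene coverage. All 10 retinal progenitor markers checked had listed sites in every library. Each library had listed sites for 6 or 7 of 7 pluripotency, 3 or 4 of 6 neuron, 4 or 5 of 5 pigment epithelium, 2 to 4 of 5 telencephalon and 0 or 1 of 4 midbrain and hindbrain markers. Of 6 mesoderm and endoderm markers, 4 had listed sites in the first untreated library, 1 in the second, and 1 and 2 in the dTAG13 libraries, with T and Mesp1 in none. The part of this difference between the untreated libraries in the results was not tested. Positions are printed as the tables give them. The submitters' processing notes name the build mm10, but the tables use contig names of a later mouse build and 0 of the 690 sites lay inside the interval of its gene in GRCm38. Exons, introns, UTRs and surrounding sequence were therefore not assigned.

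Together the 9 genes had 217 and 210 listed sites with no dTAG13 (0 h) against 189 and 184 at 8 h of dTAG13. The means were 213.5 ± 4.95 and 186.5 ± 3.54 (SD, n = 2), a ratio of 0.874 with no overlap. The same ratio over all listed sites of the series was 0.704, and the difference between these ratios was not tested. The exact two-sided permutation test of 2 against 2 libraries gave p = 0.333, the smallest this design allows. The 9 genes did not all go the same way. Both dTAG13 libraries listed fewer sites than both untreated ones for Frzb, Dkk3 and Axin1, 3 of the 8 genes listed in all 4 libraries, and more for Shisa2 alone. Over all 12520 genes listed in every library, 44.6% had fewer sites in this sense and 4.53% had more. Divided by the summed gene coverage of the same genes, the total turned the other way, with a ratio of 1.17. Sfrp2 and Shisa2 weigh most in that sum, with mean coverage of 2096 and 1529 without dTAG13 against 1333 and 1400 with it. The ratio therefore does not describe each of the 9 genes, and it was not computed over all genes.

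**Figure D1:**
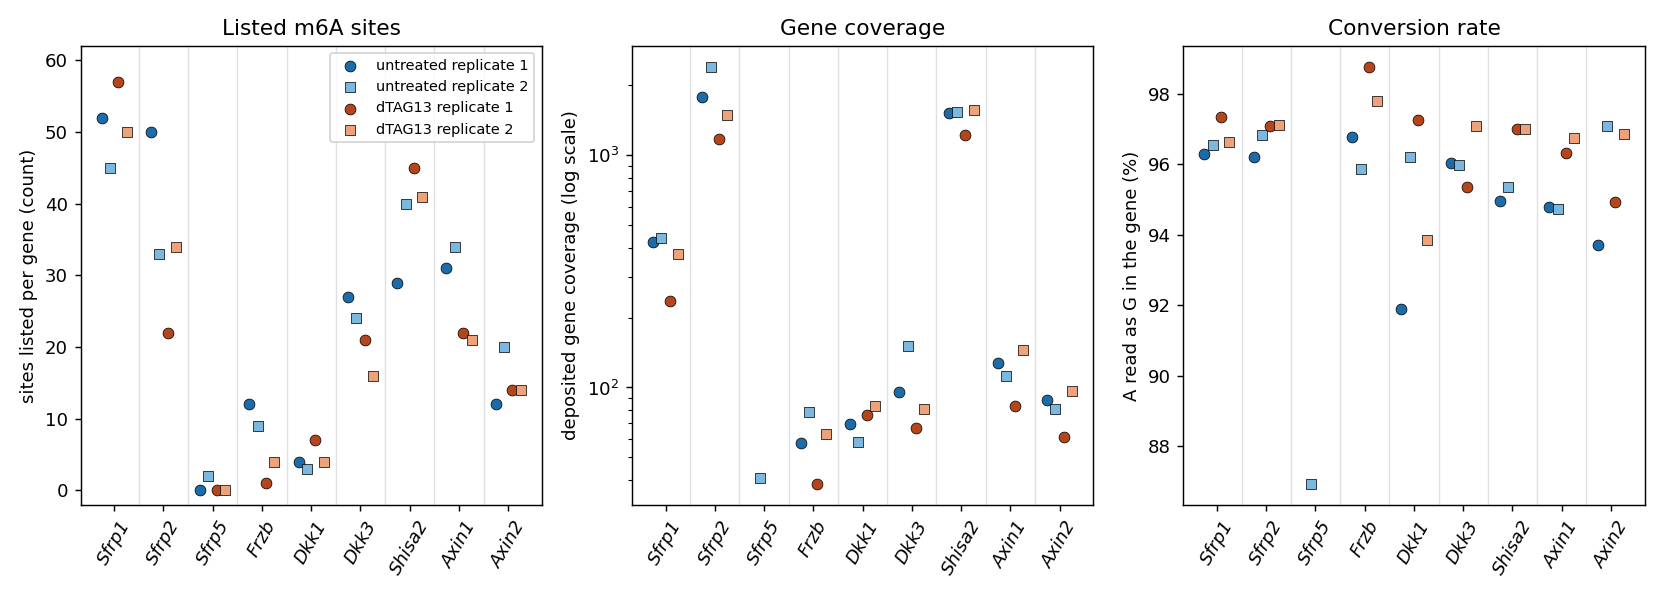
Number of listed m6A sites (left, count), deposited gene coverage (middle, log scale) and percent of A read as G in the gene (right) for each of the 9 genes, 1 point per library, with untreated libraries in blue and dTAG13 libraries in orange. Frzb has 12 and 9 listed sites without dTAG13 against 1 and 4 with it, whereas Shisa2 has 29 and 40 against 45 and 41, and Sfrp5 is listed in a single library.

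The number of listed sites per gene was tested with limma on log2(sites + 1), centred on the median gene of each library. This centring matters because without it the median difference over all genes was -0.45 on the log2 scale, lower in the dTAG13 libraries. None of the 8 antagonists listed in all libraries passed at an adjusted p of 0.05, where 0.703% of the 12520 genes did, 20 lower and 68 higher. At an unadjusted p under 0.05 the test held 3 of the 8, Frzb lower and Sfrp1 and Shisa2 higher, against 12.4% of all genes. The median estimate of the 8 was 0.23, against 0.07 over all genes. The number of genes called over the whole table was 22 without the first untreated library, 3 without the second, 50 without the first dTAG13 library and 170 without the second. No antagonist was among those called in any of these fits.

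Sfrp1, which encodes a secreted protein that binds Wnt through a Frizzled-like domain, held the most sites, 174 on the plus strand of chromosome 8 between 23901675 and 23939636. Its listed sites numbered 52 and 45 without dTAG13 against 57 and 50 with it. The counts of the groups overlapped, and relative to the median gene the difference was 0.66 ± 0.23 (log2, SE) with an adjusted p of 0.154 by limma. Split wherever neighbouring sites lay over 1000 bases apart, the sites fell into 3 blocks, of which the 3′ block of 3314 bases held 146.

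The 5′ and 3′ blocks of Sfrp1 went opposite ways. The 5′ block, 668 bases from 23901675 to 23902342, held 15 and 9 listed sites without dTAG13 against 3 and 1 with it. The 3′ block, from 23936323 to 23939636, held 37 and 35 without dTAG13 against 53 and 48 with it. In both blocks the groups did not overlap, but how many blocks of all genes separate in this way was not counted. For whole genes, 44.6% had fewer listed sites in both dTAG13 libraries than in both untreated ones, and 4.53% had more. As a share of all listed Sfrp1 sites, the 5′ block held 28.8% and 20.0% without dTAG13. With dTAG13 its share was 5.26% and 2.00%. This split was singled out after its values were seen and was not tested across genes. How many reads covered the 5′ block in the dTAG13 libraries is known only at its listed sites there, which had 75 to 246 reads.

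**Figure D2:**
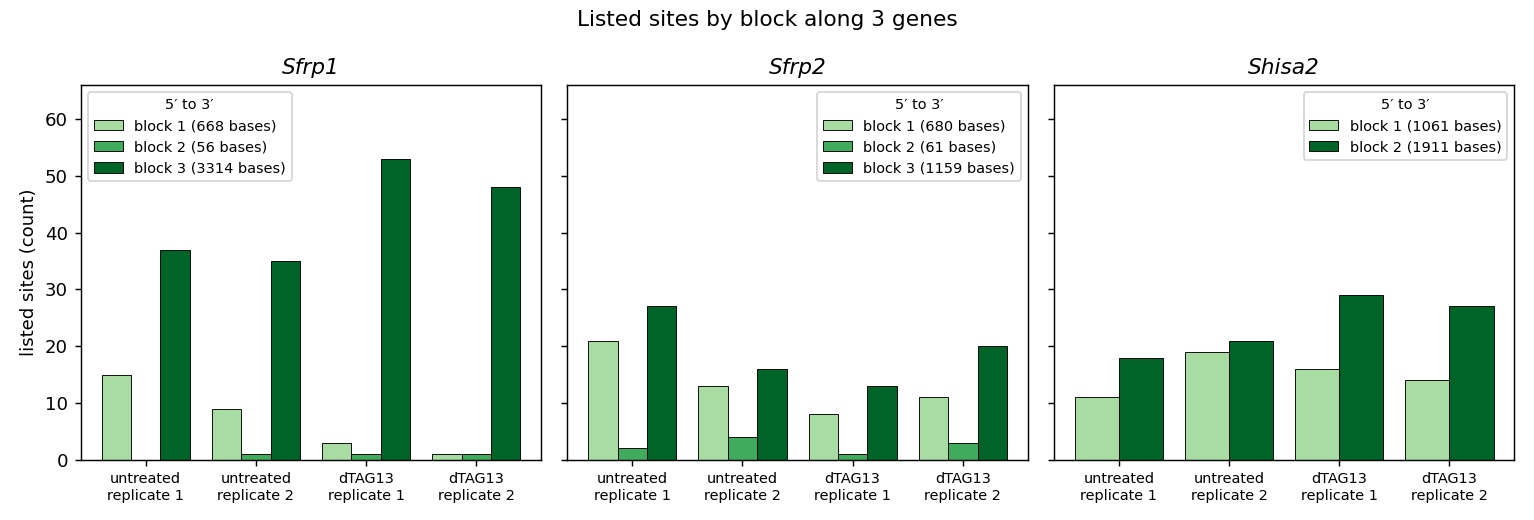
Listed sites (count) in each library for Sfrp1, Sfrp2 and Shisa2, split into blocks of sites no more than 1000 bases apart and ordered from 5′ to 3′. The first Sfrp1 block holds 15 and 9 sites without dTAG13 against 3 and 1 with it, while the third holds 37 and 35 against 53 and 48.

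Within the 5′ block of Sfrp1, 3 sites were listed in both untreated libraries and in neither dTAG13 library. The site at 23902111 had a level of 69.6% in 79 reads and 100% in 87 reads. The site at 23901991 had 33.3% in 90 reads and 60.2% in 88 reads. The site at 23901955 was lower but repeatable, with 13.9% of 208 reads and 14.1% of 156 reads. Next to 23902111, the first dTAG13 library listed the adjacent base at 50.0% of 96 reads, and the second listed a base 90 positions away at 97.3% of 75 reads. Around the other 2 positions neither dTAG13 library listed a site within 100 bases, so the coverage there was unknown.

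The deepest highly methylated site of Sfrp1 lay near the end of its 3′ block, at chr8:23939441. Its level was 75.8% of 890 reads (95% Wilson interval 72.9 to 78.5) in the first untreated library and 83.8% of 1050 reads (81.5 to 85.9) in the second. It was listed in neither dTAG13 library. Within 100 bases of it the first dTAG13 library listed 4 other sites with 136 to 638 reads, and the second listed 4 with 396 to 874 reads. The nearest of these, 11 and 28 bases away, had levels of 10.8% and 14.2%. In the same window the first untreated library listed 3 other sites with 115 to 330 reads, and the second listed none. A second deep site, at 23937694, had 38.7% of 3081 reads and 26.0% of 2124 reads in the untreated libraries and was also listed in neither dTAG13 library. There the dTAG13 libraries listed neighbours with up to 767 and 1137 reads, the nearest 18 and 8 bases away. The untreated libraries listed neighbours with only 78 to 84 and 52 to 73 reads, far fewer than at 23937694 itself. Reads of neighbours therefore do not give those of the unlisted position, which are unknown with dTAG13. Another 3 sites of this block were listed in both untreated libraries and neither dTAG13 library, at levels nearer the listing limit. The site at 23936650 had 18.1% of 475 reads and 17.2% of 633 reads, 23938296 had 10.5% of 523 reads and 11.4% of 341 reads, and 23938638 had 12.2% of 417 reads and 15.0% of 227 reads. The opposite pattern, both dTAG13 libraries and neither untreated one, was seen at 23938701, with 21.7% of 295 reads and 17.4% of 448 reads, and at 23938754, with 15.7% of 89 reads and 25.2% of 135 reads. The highest level of Sfrp1 with at least 50 reads, beside 23902111, was 100% of 68 reads at 23936409, in the second dTAG13 library alone.

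The only Sfrp1 site listed in all 4 libraries, at chr8:23938574, was higher with dTAG13. Its level was 17.7% of 198 reads and 17.4% of 218 reads in the untreated libraries, and 36.8% of 253 reads and 44.9% of 118 reads in the dTAG13 libraries. The groups did not overlap, and the difference was 23.3 percentage points. In the quasi-binomial test over all 2321 sites listed in every library its adjusted p was 0.116, so it did not pass. Of all tested sites, 17.8% had both dTAG13 levels above both untreated levels. Both Sfrp1 sites listed in 3 libraries lacked the second untreated library, and they went opposite ways. At 23938614 the level was 10.1% in the first untreated library, below the 47.1% and 12.6% of the dTAG13 libraries. At 23939323 it was 25.3% in the first untreated library, above the 17.9% and 15.3% of the dTAG13 libraries.

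**Figure D3:**
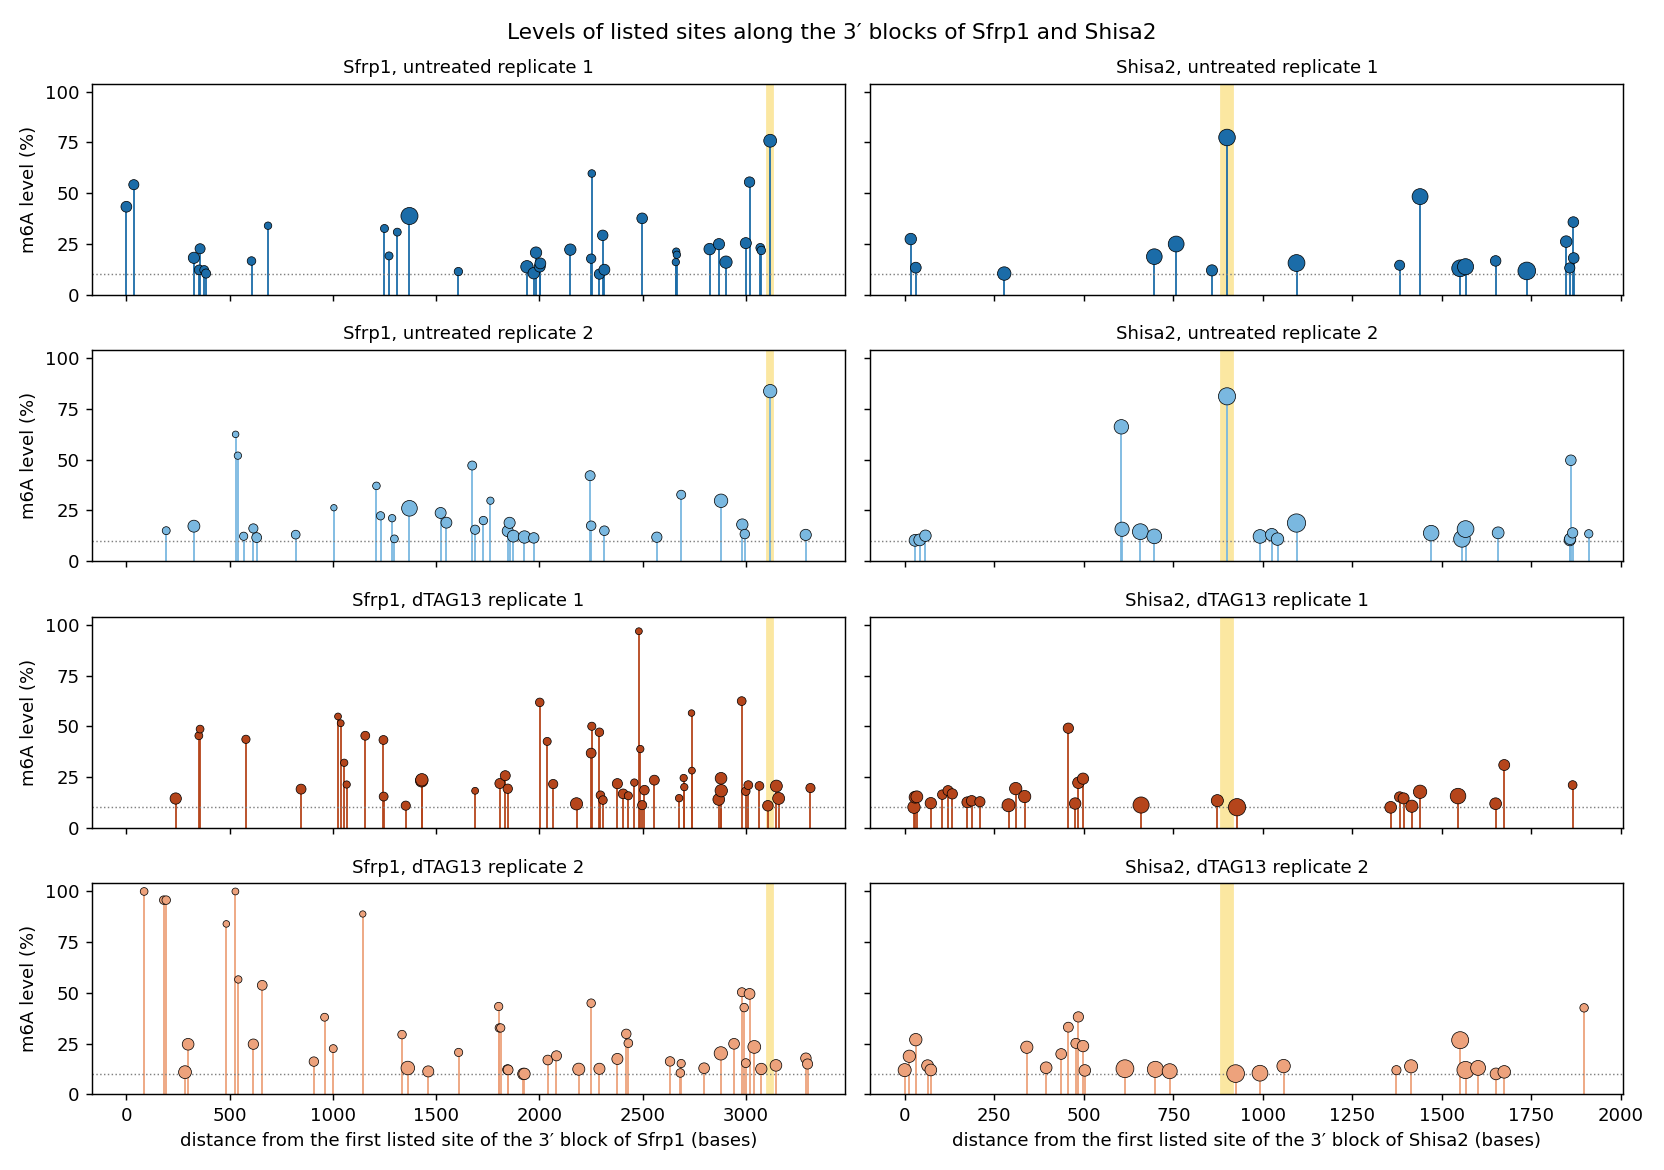
Level (percent A of A and G reads) of each listed site along the 3′ block of Sfrp1 (left) and of Shisa2 (right) in the 4 libraries, plotted by distance in bases from the first listed site of the block, with larger points for more reads and a dotted line at the 10% listing limit. The yellow bands mark the sites at 75.8% and 83.8% in Sfrp1 and at 77.4% and 81.3% in Shisa2 without dTAG13, where neither dTAG13 library lists a site at the same position.

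Sfrp2, a second secreted Wnt-binding antagonist, held 108 sites on the plus strand of chromosome 3 between 83673662 and 83681600. It had 50 and 33 listed sites without dTAG13 against 22 and 34 with it, and the groups overlapped. Relative to the median gene the difference was -0.03 ± 0.27 (log2, SE) with an adjusted p of 0.977 by limma. The first block of 680 bases held 21 and 13 sites without dTAG13 against 8 and 11 with it. The last block of 1159 bases held 27 and 16 against 13 and 20. Block differences were not counted over all genes and were not tested.

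Sfrp2 had the largest share of sites found again, with 84 of 108 (77.8%) listed in 1 library only. Its 2 sites listed in all 4 libraries had similar levels in both groups. A site enters this set only at 10% or more in every library, so a site falling below that limit with dTAG13 is left out. The deeper of the 2 sites, at chr3:83680841, had 20.5% of 5039 reads and 20.8% of 5931 reads without dTAG13. With dTAG13 it had 20.2% of 2401 reads and 19.1% of 5037 reads. Both dTAG13 levels lay below both untreated ones, as at 19.4% of all tested sites, by 1.02 percentage points with an adjusted p of 0.720 in the quasi-binomial test. The site at 83673984 had 14.6% and 14.4% without dTAG13 against 11.9% and 14.1% with it, which differ by -1.54 percentage points with an adjusted p of 0.932. The site at 83681552 had 18.8% and 19.1% without dTAG13 and 19.9% in the first dTAG13 library. The second dTAG13 library did not list 83681552 but listed the nearby 83681556 with 368 reads, so the level of 83681552 there is unknown. Another 9 Sfrp2 sites were listed in both untreated libraries, 2 of which were also listed in the second dTAG13 library. These 2 were 83680927, with 23.3% and 32.5% against 18.8%, and 83681556, with 26.3% and 15.0% against 25.5%. The other 7 were listed in neither dTAG13 library. Of these, 83674216 was the deepest, with 21.1% of 3445 reads and 10.7% of 2512 reads, followed by 83680997, with 11.4% of 1630 reads and 14.9% of 2578 reads. The site at 83674048 had the highest level, 52.8% of 53 reads and 26.0% of 96 reads. The remaining 4, at 83676683, 83680533, 83680563 and 83680961, had levels from 10.1% to 19.7% in 76 to 780 reads. In the dTAG13 libraries only, 83680652 had 14.5% and 30.8%, and 83680976 had 11.5% and 24.8%. The highest Sfrp2 level with at least 50 reads, 77.6% of 313 reads at 83680624, came from the second untreated library alone, and the next, 69.5% of 59 reads at 83676677, from the second dTAG13 library.

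Sfrp5, a further secreted Frizzled-related antagonist, was listed in 1 library only. The second untreated library had 2 sites 4 bases apart, at 42187124 and 42187128 on the minus strand of chromosome 19. Their levels were 70% of 20 reads and 73.7% of 19 reads, and with so few reads both were chosen later. The conversion of A to G in this gene was 86.9%, below that of any other antagonist in any library, and its gene coverage was 40.7. Sfrp5 entered no test, because the tables give it no value in the other 3 libraries.

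Frzb, a secreted Frizzled-related antagonist of the SFRP family, held 26 sites on the minus strand of chromosome 2 between 80242620 and 80277640. It had 12 and 9 listed sites without dTAG13 against 1 and 4 with it. The groups did not overlap, and the difference relative to the median gene was -1.33 ± 0.63 (log2, SE) with an adjusted p of 0.357 by limma. Gene coverage was 57.8 and 78.7 without dTAG13 against 38.4 and 62.7 with it, and its groups overlapped. No Frzb site was listed in more than 1 library. The block at the 3′ end, 1130 bases long, held 8 and 6 sites without dTAG13 against 1 and 3 with it. Such block differences were not counted over all genes and were not tested. The sites at 100% with at least 50 reads were 80243217 (112 reads) and 80243675 (65 reads) in the second untreated library and 80243038 (77 reads) in the second dTAG13 library. Of these, 80243675 was chosen later.

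Dkk1, the secreted inhibitor that binds LRP coreceptors, held 18 sites on the minus strand of chromosome 19 between 30524268 and 30526838. It had 4 and 3 listed sites without dTAG13 against 7 and 4 with it, and the groups met at 4. The difference relative to the median gene was 1.02 ± 0.63 (log2, SE) with an adjusted p of 0.512 by limma. Each Dkk1 site was listed in a single library. The 2 highest with at least 50 reads, 99.0% of 105 reads at 30524639 and 76.9% of 108 reads at 30524400, both came from the second dTAG13 library.

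Dkk3, a divergent member of the dickkopf family whose effect on Wnt signalling varies with context, held 84 sites on the minus strand of chromosome 7. Of these, 80 lay in a block of 2269 bases from 111715310 to 111717578, at the 3′ end of its listed sites. It had 27 and 24 listed sites without dTAG13 against 21 and 16 with it. The groups did not overlap, but relative to the median gene the difference was 0.07 ± 0.34 (log2, SE, adjusted p = 0.961 by limma), and it was -0.45 without centring.

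The sites listed for Dkk3 with dTAG13 had higher levels and fewer reads. The median level of its listed sites was 29.4% and 27.4% without dTAG13 against 54.5% and 49.5% with it. The median read number of the same sites was 102 and 148 without dTAG13 against 65 and 68.5 with it. The groups did not overlap in either measure. Over all genes, 29.8% had both dTAG13 medians of the level above both untreated ones and 19.6% had both medians of the reads below. A site with under 50 reads needs a level above 10% to reach the 5 A reads of the listing, and how far this moves the median was not tested. The medians of Sfrp1, Sfrp2 and Frzb were higher with dTAG13 in the same sense, which makes 4 of the 8 genes. Only 4 of the 84 Dkk3 sites were listed in more than 1 library. Among them, 111716745 had 16.7% of 102 reads and 13.0% of 623 reads in the untreated libraries and was listed in neither dTAG13 library. The others were chosen later. The site at 111717067 had 64.5% of 124 reads in the first untreated and 78.2% of 147 reads in the first dTAG13 library. The site at 111715475 had 31.9% of 141 reads in the second untreated and 70.7% of 82 reads in the second dTAG13 library. In the same libraries 111715494 had 11.1% of 243 reads and 12.7% of 102 reads. The dTAG13 level was the higher at each, and these differences were not tested. The highest Dkk3 levels with at least 50 reads came from single untreated libraries. They were 99.0% of 207 reads at 111716872 in the first and 94.7% of 57 reads at 111717111 in the second.

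Shisa2, whose product keeps Frizzled and FGF receptors in the endoplasmic reticulum, was the only antagonist with more listed sites in both dTAG13 libraries. Its 127 sites lay on the plus strand of chromosome 14 between 59862778 and 59869082. It had 29 and 40 listed sites without dTAG13 against 45 and 41 with it. Relative to the median gene the difference was 0.85 ± 0.26 (log2, SE), with an adjusted p of 0.0807 by limma, which misses the threshold. Uncentred, the difference was 0.33. Gene coverage was 1519 and 1539 without dTAG13 against 1228 and 1572 with it, and its groups overlapped. The 3′ block of 1911 bases held 18 and 21 sites without dTAG13 against 29 and 27 with it. The 5′ block of 1061 bases held 11 and 19 against 16 and 14. How many blocks of all genes separate as the 3′ block does was not counted, and the blocks were not tested.

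A highly methylated Shisa2 site stood out in both untreated libraries, at chr14:59868072. Its level was 77.4% of 2735 reads (95% Wilson interval 75.8 to 79.0) and 81.3% of 3153 reads (79.9 to 82.6). Neither dTAG13 library listed it, and both listed other sites within 100 bases. The untreated libraries also listed 1 other site each in that window, with 462 and 1168 reads, fewer than at 59868072. The nearest listed site in the first dTAG13 library was 27 bases away, with 13.3% of 676 reads, and in the second it was 24 bases away, with 10.2% of 3593 reads. The tables give no reads at an unlisted position, so its level with dTAG13 is unknown.

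Other Shisa2 sites were listed in both untreated libraries and in neither dTAG13 library at lower levels. The site at 59868266 had 15.5% of 2917 reads and 18.8% of 4128 reads, and the site at 59867869 had 18.7% of 2142 reads and 12.2% of 1623 reads. The site at 59862836 had 29.0% of 186 reads and 61.2% of 152 reads. The site at 59869029 had 13.1% of 305 reads and 10.3% of 493 reads.

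The opposite pattern occurred as well, at 3 neighbouring sites of the 3′ block. The site at 59867629 had 49.1% of 316 reads and 33.1% of 257 reads in the dTAG13 libraries. The site at 59867657 had 22.1% of 524 reads and 38.1% of 312 reads, and the site at 59867670 had 24.2% of 480 reads and 23.7% of 518 reads. These 3 were not listed without dTAG13, and no untreated library listed any site within 100 bases of them, so coverage there was unknown. A further 4 sites were listed in both dTAG13 libraries and in no untreated library, but there the untreated libraries listed neighbours with 178 to 3584 reads. The site at 59863175 differed most between the dTAG13 libraries, with 96.1% of 51 reads in the first and 16.6% of 295 reads in the second. The site at 59868846 had 30.9% of 424 reads and 11.0% of 798 reads. The other two, 59863295 and 59867245, had levels from 10.1% to 19.8% in 427 to 873 reads. The only other Shisa2 level above 80% with at least 50 reads, beside 59868072 and 59863175, was 86.5% of 52 reads at 59863166 in the first dTAG13 library. A single Shisa2 site was listed in 3 libraries, 59868738, with 13.7% and 15.8% without dTAG13 and 11.9% in the second dTAG13 library.

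Axin1, the scaffold of the β-catenin destruction complex, held 96 sites on the plus strand of chromosome 17, spread over 10 blocks between 26357731 and 26414683. It had 31 and 34 listed sites without dTAG13 against 22 and 21 with it. The groups did not overlap, but relative to the median gene the difference was -0.05 ± 0.30 (log2, SE, adjusted p = 0.969 by limma). Gene coverage was 127.6 and 112.4 without dTAG13 against 83.0 and 145.6 with it.

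Listed sites of Axin1 at a level of 50% or more were fewer with dTAG13, but nearly all were listed at that level in a single library. With at least 50 reads they numbered 3 and 10 without dTAG13 against 1 and 0 with it, a pattern that 13.4% of all genes shared. Of these, only 26406794 was listed in both untreated libraries at that level. Without the limit on reads the counts were 6 and 12 against 5 and 3, for which the share of all genes was not counted. The median level of its listed sites was 29.1% and 32.5% without dTAG13 against 22.2% and 22.5% with it, below in both libraries as in 10.9% of all genes. Median reads per listed site were 109 and 94.5 without dTAG13 against 111.5 and 111 with it, higher in both as in 13.8% of all genes. In Sfrp1, sites at 50% or more with at least 50 reads numbered 5 and 4 against 6 and 7, more in both as in 6.84% of all genes. Axin1 was the only antagonist of the 8 whose median level was lower in both dTAG13 libraries.

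Single Axin1 sites illustrate these levels. The site at chr17:26362019 had 100% of 114 reads (95% Wilson interval 96.7 to 100) in the second untreated library, and 21.1% of 128 reads (14.9 to 29.0) and 22.5% of 111 reads (15.7 to 31.1) in the dTAG13 libraries. It was not listed in the first untreated library, so the untreated value rests on that library alone. The site at 26406794 had 60.6% of 109 reads and 98.3% of 59 reads without dTAG13 and was listed in neither dTAG13 library, where sites 14 and 16 bases away had 82 and 91 reads. The site at 26357907 had 34.0% of 359 reads and 19.5% of 555 reads without dTAG13, 10.1% of 227 reads in the first dTAG13 library and no listing in the second. In the other direction, 26412955 had 31.1% of 122 reads and 41.7% of 103 reads in the dTAG13 libraries only, and 26362110 had 100% of 55 reads and 70% of 40 reads. The site at 26361633 was listed in both untreated libraries only, at 14.0% of 93 reads and 20.5% of 83 reads, and 26361856 reached 100% of 77 reads in the second untreated library alone.

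Axin2, a second destruction-complex scaffold and itself a widely used target gene of β-catenin, held 55 sites on the plus strand of chromosome 11 between 108811804 and 108841523. It had 12 and 20 listed sites without dTAG13 against 14 and 14 with it, and the groups overlapped. The difference relative to the median gene was 0.38 ± 0.42 (log2, SE, adjusted p = 0.755 by limma), and it was -0.14 without centring. The site at 108814439 was at 100% in both untreated libraries, with 29 and 36 reads, and was listed in neither dTAG13 library, which listed no site within 100 bases. The sites at 108840468 and 108841116 were listed in the dTAG13 libraries only, the first with 31.4% and 38.2% and the second with 18.2% and 61.0%. With at least 50 reads, 4 Axin2 sites were at 100%, each in 1 library alone. The deepest were 108814159, with 171 reads in the first untreated library, and 108833108, with 132 reads in the second dTAG13 library. The others, 108811804 in the first dTAG13 library and 108840514 in the second, had 59 reads each and were chosen later.

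Most sites of these genes were seen once. Of the 690, 594 (86.1%) appeared in 1 library, 85 in 2, 8 in 3 and 3 in every library, whereas 91.4% of all sites in genes were listed in 1 library. Among sites of the first untreated library with at least 50 reads, 31 of 185 (16.8%, 95% Wilson interval 12.1 to 22.8) were listed in the second untreated library. In each dTAG13 library 19 of the 185 (10.3%, 6.67 to 15.5) were listed. Of the 150 such sites in the first dTAG13 library, 14.0% (9.34 to 20.5) were listed in the second, and 12% (7.73 to 18.2) and 10.0% (6.15 to 15.8) in the untreated libraries. Over all sites in genes with at least 50 reads, 11.1% of those of the first untreated library were listed in the second, and 6.00% and 6.38% in the dTAG13 libraries. For the first dTAG13 library the shares were 7.48% in the second, and 8.47% and 8.40% in the untreated libraries. The intervals of the antagonists overlap. They count sites as independent, which neighbouring sites of the same gene may not be, and they leave out the spread between libraries. The intervals given for levels of single sites cover counting error only, since PCR duplicates may remain among the reads.

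Sites that both libraries of a group listed give the firmest view of the levels. Of the 32 sites listed in both untreated libraries, 24 (75.0%) were listed in neither dTAG13 library, against 80% of such sites in all genes. At a mean untreated level of 40% or more this held for 7 of 7, against 85.8% in all genes, and at lower levels for 17 of 25 (68.0%), against 76.6%. The 7 were the sites described above in Sfrp1 (3), Shisa2 (2), Axin1 and Axin2. Both sites at 70% or more with at least 500 reads in each untreated library, in Sfrp1 and Shisa2, were listed in neither dTAG13 library, against 61.5% of 109 such sites in all genes. These last limits were set after the values were seen. Of the 21 sites listed in both dTAG13 libraries, 15 (71.4%) were listed in neither untreated library, against 68.8% in all genes, and at a mean of 40% or more 3 of 4 were, against 78.3%. The shares of the antagonists lay near those of all genes, apart from the few sites with high levels, whose number is too small to read.

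**Figure D4:**
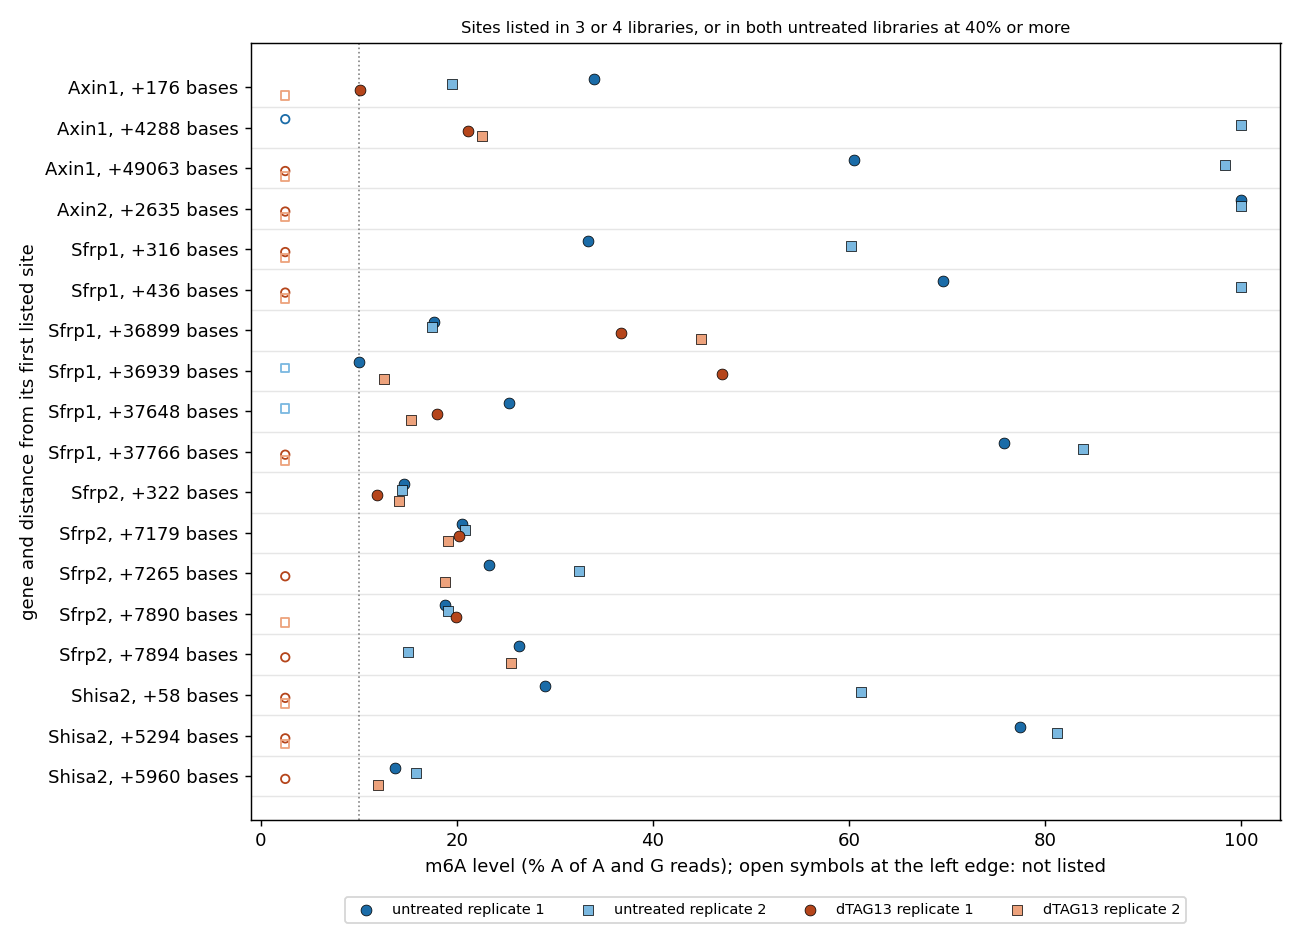
Level (percent A of A and G reads) of each antagonist site listed in 3 or 4 libraries, or in both untreated libraries at a mean of 40% or more, named by gene and distance from its first listed site; open symbols at the left edge mark libraries that do not list the site and carry no level. The 7 sites listed in both untreated libraries at a mean of 40% or more have open dTAG13 symbols. The Sfrp2 sites listed in 4 libraries lie near 20% and 14% in both groups.

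Only 3 antagonist sites, in Sfrp1 and Sfrp2, could be tested for a change in level, because the test needs a listing and at least 20 reads in all 4 libraries. None passed the quasi-binomial test at an adjusted p of 0.05, where 2.28% of 2321 sites did, 51 lower and 2 higher. At an unadjusted p under 0.05 the Sfrp1 site passed, against 9.35% of all tested sites. By the same test no site was called over the whole table when any of the 4 libraries was left out.

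Gene coverage is a deposited signal with 1 value per gene and library, and whether it is divided by gene length is not given, so it was compared between libraries only. Sfrp2 had 1786 and 2407 without dTAG13 against 1174 and 1493 with it. Sfrp1 had 421.5 and 440.0 against 235.9 and 374.4, and Dkk3 had 95.6 and 150.3 against 67.2 and 81.0. In these 3 genes the dTAG13 values were the lowest of the 4, as in 28.1% of all genes, and in Dkk1 (69.7 and 58.5 against 76.4 and 83.6) they were the highest, as in 10.1%. In bulk samples, fewer cells that express a gene and less RNA per cell cannot be told apart.

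Coverage was tested with limma on log2 values centred on the median gene of each library. The median difference over all genes was -0.15 without centring and -0.07 after it. The difference was -0.57 ± 0.15 (log2, SE, adjusted p = 0.145) for Sfrp2, -0.62 ± 0.27 (adjusted p = 0.319) for Dkk3 and -0.45 ± 0.16 (adjusted p = 0.219) for Sfrp1. Dkk1 had 0.41 ± 0.28 (adjusted p = 0.536) and Frzb -0.38 ± 0.31 (adjusted p = 0.617). Shisa2, Axin1 and Axin2 lay within 0.06 of the median gene, although Shisa2 was at 0.25 after quantile normalisation. After centring, the dTAG13 values were the lowest in 5 of the 8 genes (29.2% of all genes) and the highest in Dkk1 (17%). None of the 8 passed, where 0% of 12520 genes did. At an unadjusted p under 0.05 the test held Sfrp1 and Sfrp2, both lower, against 16.3% of all genes. The whole-table count was 18 without the first dTAG13 library and 134 without the second, and 0 without either untreated library, and no antagonist was called in any of these fits. Among 67 other Wnt genes listed in all libraries, those nearest to Dkk3, the antagonist with the largest coverage difference, were Csnk1a1, Nkd1 and Ctnnb1. Their distances were 0.33, 0.41 and 0.42 on the log2 scale over the 4 libraries, after each gene's own mean was subtracted.

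The percent of A read as G in the gene, its conversion rate, was higher with dTAG13 in 5 of the 8 antagonists without overlap, against 40.9% of all genes. It was lower without overlap in none of the 8, against 6.05% of all genes. Shisa2 had 95.0% and 95.4% without dTAG13 against 97.0% and 97.0% with it, and Axin1 had 94.8% and 94.7% against 96.3% and 96.7%. Frzb had 96.8% and 95.9% against 98.8% and 97.8%. Sfrp1 and Sfrp2 were the other two, and their differences of 0.55 and 0.59 percentage points turned to -0.22 and -0.18 when each library was centred on its median. By limma the difference was 1.84 ± 0.58 percentage points (SE, adjusted p = 0.394) for Shisa2, 1.76 ± 0.58 (adjusted p = 0.400) for Axin1 and 1.97 ± 0.72 (adjusted p = 0.414) for Frzb. None of the 8 passed, where 0% of 12520 genes did, and these 3 passed an unadjusted p of 0.05, against 11.9% of all genes. The median difference was 1.05 over the 8 antagonists and 0.67 over all genes. A higher conversion leaves fewer unconverted A reads, and its part in which sites were listed was not tested.

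The other genes of the pathway were taken as a list of 92 ligands, receptors, transducers, target genes and further antagonists, of which 67 had listed sites in all 4 libraries. In the limma test of listed sites, 1 of 67 passed, with more sites, and none with fewer. This was Ctnnb1, which encodes β-catenin, with 40 and 32 listed sites without dTAG13 against 53 and 49 with it. Its difference relative to the median gene was 1.02 (log2, adjusted p = 0.0158 by limma). Without centring the difference was 0.50 with an adjusted p of 0.242, and no gene of the whole table was called. With 1 library left out, the adjusted p was 0.0524 without the first untreated library, 0.516 without the second, 0.128 without the first dTAG13 library and 0.0144 without the second. The gene coverage of Ctnnb1 was 1645 and 1864 without dTAG13 against 841.5 and 1306 with it (adjusted p = 0.106). In the coverage and conversion tests 0 of 67 passed by limma, with 10 and 8 at an unadjusted p under 0.05. Of 12 sites tested in 10 of these genes, 1 was called, in the receptor gene Fzd2 at chr11:102496378. Its level was 99.7% of 397 reads and 99.6% of 549 reads without dTAG13, and 14.3% of 133 reads and 19.7% of 655 reads with it (adjusted p = 0.00476, quasi-binomial test), where 2.28% of all tested sites passed. The call was lost with the replicate number as a block (adjusted p = 0.117) and without any 1 of the 4 libraries (0.140 to 0.162), fits in which no site of the whole table passed.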

How the data were processed

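Per the deposited tables, each of the 4 libraries has 1 list of called m6A sites. The authors deposited counts of A and G reads and of A reads per site, the fraction of A as the level, a conversion fraction and a coverage signal per gene, and p-values; the largest adjusted one listed was 0.00401. The aligner and caller are not given in the sources used here; the build mm10 is named per the submitters' processing notes. The members and gene lists were chosen with earlier results of these data known. All 9 genes are named; sites are named if listed in 3 or 4 libraries or in both of a group, or if among the 2 highest of a gene with at least 50 reads, with others marked as chosen later. Listed sites, coverage and conversion were tested with limma 3.58.1 in R 4.3.3 over the 12520 genes listed in all libraries. Levels were tested with a quasi-binomial model, moderated by limma's squeezeVar, over 2321 sites with at least 20 reads in each library. Tests were two-sided with Benjamini-Hochberg adjustment over the whole table and were tested on simulated data. Wilson intervals came from statsmodels 0.14.6. Alternatives covered centring, pseudocounts, minimum reads and levels, normalisation, other tests, a replicate block and leaving out each library. Motifs, transcript regions and sequences were not analysed here, since no genome of the tables' build was used.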

Additional observations from a re-analysis of the deposited data

How the results depend on the processing

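The number of genes called for listed sites, 88, was 0 without centring, 41 with log2(n + 0.5), 89 with the replicate number as a block and 3 to 170 with 1 library left out. The count for gene coverage, 0 by limma with 2035 genes at an unadjusted p under 0.05, was 20 without centring, 1 after quantile normalisation, 8 with the replicate block and 0 to 134 with 1 library left out. For conversion it was 0 in every fit, with 1488 unadjusted. The 53 called sites became 531 with Fisher's exact test on summed reads, which ignores the spread between libraries, 0 with the replicate block and 0 to 0 with 1 library left out. By Fisher's test the Sfrp1 site at 23938574 passed, with an adjusted p of 1.19e-10, against 0.116 to 0.522 in the other fits. The ratio of listed sites of the 9 genes, 0.874, was 0.847 for sites with at least 50 reads, 0.913 at a level of 20% or more, 0.976 at 50% or more, 1.17 per summed gene coverage, 0.874 with the replicate block and 0.859 to 0.888 with 1 library left out. Same-numbered libraries did not deviate together (correlations of -0.00 to 0.02), so the numbers were not taken to pair them.

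Differences of single genes turned as follows. Without centring, listed sites were -0.45 for Dkk3 and -0.14 for Axin2 (log2). Shisa2 coverage was 0.25 after quantile normalisation. Centred conversion was -0.22 for Sfrp1, -0.18 for Sfrp2, -0.56 for Dkk3 and -0.26 for Axin2 (percentage points). With 1 library left out, listed sites ranged from -0.37 to 0.30 for Sfrp2, -0.18 to 0.32 for Dkk3 and -0.15 to 0.043 for Axin1. Coverage ranged from -0.23 to 0.15 for Axin1 and -0.17 to 0.052 for Axin2. Conversion ranged from -0.64 to 3.67 for Dkk1, -0.66 to 1.08 for Dkk3 and -1.18 to 2.20 for Axin2. None of these differences passed a test, and the cause of the turns was not tested. The number of libraries and the listing limits set the precision: a site missing from a table has no reads to test.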

Other observations

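Sites at 10 to 20% made up 47.0% and 44.8% of the listings of the 9 antagonists without dTAG13 and 40.7% and 46.2% with it, against 32.9% to 35.8% over all sites in genes. Sites at 90% or more made up 5.53% and 10.5% without dTAG13 and 10.1% and 10.9% with it, against 14.5% to 18.4%. The median read number of their listed sites was 148 to 198.5, against 75 to 91 over all listed sites, and its part in this was not tested. The genes differed in both. Sites of Sfrp1, Sfrp2 and Shisa2 had a median level of 17.7% and 15.9% without dTAG13 against 19.3% and 18.7% with it, at a median of 254.5 to 400.5 reads. The sites of the other 6 genes had a median level of 33.6% and 38.8% without dTAG13 against 32.8% and 41.7% with it, at a median of 59 to 93 reads. Levels near 100% were seldom seen again: of 73 antagonist listings at 90% or more, with a median of 36 reads, 8 (11.0%) had the same position listed in another library. Over all sites in genes this was 9.18%, with a median of 32 reads.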
